A study of Mus musculus with 6 samples.

Results

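The transcripts described here are 10 genes of the osteoclast lineage, looked up by gene name among the 55736 genes of an RNA sequencing table from mouse bone marrow-derived macrophages. They are Acp5, Dcstamp, Ocstamp, Nfatc1, Tnfrsf11a, Oscar, Itgb3, Spp1, Gpnmb and Calcr, and each name occurs in 1 row of the table. The cells are labelled wild type (WT) and leukocyte, grown from marrow, and all were taken at 24 h. A group of 3 control libraries was compared with 3 libraries of cells given lipopolysaccharide (LPS), the Gram-negative cell wall glycolipid that activates Toll-like receptor 4. The treatment label gives 200 ng/ml LPS, and the titles of the treated samples hold a further, different number that is left unexplained. Strain, sex, age and the growth factors of the culture are not stated in the labels, so it is unknown whether any RANKL was added. The study concerns the chemokine CCL7, macrophage polarization and arthritis, and the comparison asks how these transcripts differ between LPS-treated and control macrophages.

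Osteoclasts, the cells that dissolve bone, form from the same precursors as macrophages. The growth factor M-CSF keeps the precursors alive, and RANKL, made by stromal cells and lymphocytes, binds RANK on their surface and signals through TRAF6 to NF-kB and AP-1. A second signal through receptors such as OSCAR and TREM2, which pair with ITAM adaptors, raises calcium and activates calcineurin, and the transcription factor NFATc1 then switches on the genes of fusion, attachment and acid secretion. Several of the same transcripts are also made by macrophages that never become osteoclasts, among them those of osteopontin, GPNMB and RANK itself.

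Upstream sequences are shown for the transcript that rose and for the most abundant pair that fell, because these carry most of the signal. RefSeq promoter windows on GRCm38.p6 (250 bases before to 50 after an annotated start) were matched for 6 of the 10 genes, as 10 windows. The 250 bases before the start are printed 5′ to 3′ in the direction of transcription, in lower case, with capitals where a searched motif matched on either strand. The Acp5 window is the most downstream of its 3 annotated starts and the only one of the 3 with a match, the Gpnmb window is its only one, and the Spp1 window is the upstream one of its 2.
Acp5 (chr9:22130599-22130848, minus strand): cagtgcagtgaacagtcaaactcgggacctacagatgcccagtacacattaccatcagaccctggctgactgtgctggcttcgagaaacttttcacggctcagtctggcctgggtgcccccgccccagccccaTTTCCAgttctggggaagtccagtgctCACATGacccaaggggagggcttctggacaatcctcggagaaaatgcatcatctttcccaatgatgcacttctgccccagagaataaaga
Gpnmb (chr6:49036268-49036517, plus strand): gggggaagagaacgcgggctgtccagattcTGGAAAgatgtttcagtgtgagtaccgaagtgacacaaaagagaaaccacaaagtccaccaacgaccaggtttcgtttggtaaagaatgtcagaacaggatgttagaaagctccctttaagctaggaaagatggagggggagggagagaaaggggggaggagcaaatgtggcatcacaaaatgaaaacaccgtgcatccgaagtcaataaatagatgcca
Spp1 (chr5:104434861-104435110, plus strand): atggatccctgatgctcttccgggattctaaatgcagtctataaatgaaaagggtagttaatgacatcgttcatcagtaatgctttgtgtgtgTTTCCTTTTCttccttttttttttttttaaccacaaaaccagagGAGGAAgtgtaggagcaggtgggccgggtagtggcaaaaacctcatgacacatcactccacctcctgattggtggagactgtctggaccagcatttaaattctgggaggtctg

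The searched motifs were TGANTCA (AP-1), TGGAAA (NFAT), GAGGAA (PU.1), CACGTG or CATGTG (an E-box that MITF can bind) and an interferon-type element (GAAA, any 2 bases, GAAA), on both strands. In the Acp5 stretch the capitals mark an NFAT match 117 bases and an E-box match 90 bases before the start. In Gpnmb they mark an NFAT match 220 bases before the start, and an AP-1 match lies just after the start, outside the printed stretch. In Spp1 they mark an interferon-type match 157 bases and a PU.1 match 113 bases before the start. Over all 32851 windows of the same length, NFAT letters occurred in 21.4%, PU.1 letters in 28.3%, E-box letters in 20.4%, AP-1 letters in 7.81% and the interferon-type element in 3.44%. Among the 10 windows of the osteoclast lineage genes the NFAT letters occurred in 4, from Acp5, Gpnmb, Oscar and Spp1, the PU.1 and E-box letters in 2 each, and the AP-1 and interferon-type letters in 1 each. A match describes the letters only.

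Levels are given as TPM, the reads of a gene divided by its length and brought to a fixed total per library. Such values allow genes to be compared within a library. TPM keeps no read depth, so no counting error can be given, and an exact 0 may be a failed estimate. Changes are LPS minus control on the log2(TPM + 1) scale, with limma p-values adjusted over the 12440 genes that reached 1 TPM in at least 3 libraries, and a limit of 0.05. The scale understates the change of genes near or below 1 TPM. The labels name no separate cultures or animals for the libraries of a group, so the p-values measure the spread between libraries, which may be technical. The smallest p that an exact permutation of 3 against 3 libraries allows is 0.1. Between 12376 and 12433 genes reached 1 TPM in a control library and between 11590 and 11643 in an LPS library, and the 10 most abundant genes took 15.4% to 16.3% of TPM in control against 26.6% to 27.6% in LPS libraries. Over all tested genes the median change was −0.44. Median-of-ratios scaling, which sets that median to 0.00, is therefore given beside TPM as deposited where the direction depends on it.

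In control macrophages the osteoclast lineage genes spanned nearly the whole range of the table. Gpnmb had 4840 ± 294 TPM and Spp1 846 ± 84.9 TPM (SD, n = 3 libraries here and below), which placed them 16 and 167 among the tested genes by level. Tnfrsf11a and Nfatc1 followed with 40.9 ± 2.12 and 38.4 ± 2.07 TPM, and their libraries overlapped. Acp5 had 13.6 ± 1.23 TPM, Itgb3 4.05 ± 0.267 TPM and Dcstamp 1.34 ± 0.331 TPM. Ocstamp, Oscar and Calcr stayed below 1 TPM in every library of both groups. The order changed with LPS: Acp5 moved from place 5 to place 2 of the 10, above Spp1, while Itgb3 moved from 6 to 8. The 10 genes together summed to 5784 ± 373 TPM in control against 1495 ± 73.7 TPM in LPS libraries, of which Gpnmb made up 83.7% ± 0.614 and 61.8% ± 1.09. The share of Acp5 in that sum was 0.236% ± 0.029 in control and 20.9% ± 0.944 in LPS libraries.

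**Figure D1:**
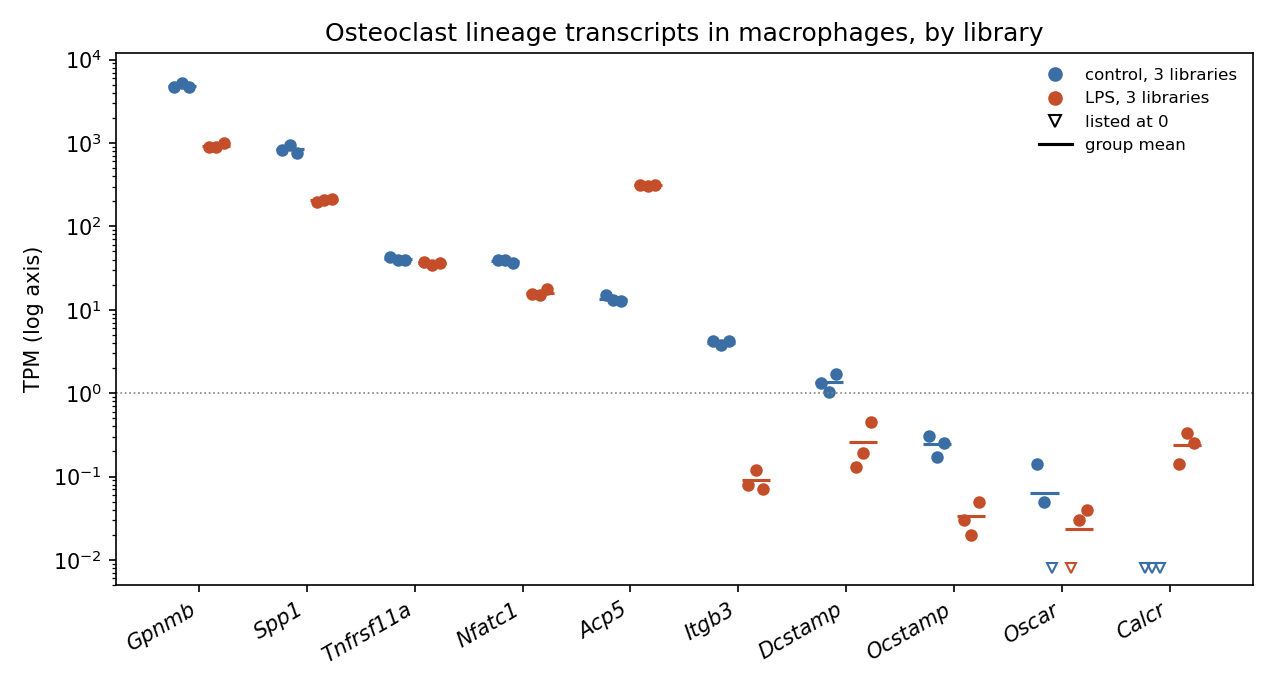
TPM of the 10 osteoclast lineage genes in each library, on a log axis, with control in blue, LPS in orange and group means as bars; open triangles at the bottom mark values listed at 0. Acp5 is the only gene above 1 TPM whose LPS libraries lie above its control libraries, and Gpnmb and Spp1 remain among the 3 highest genes in both groups.

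Of the 10 genes 7 passed the filter and were tested, and limma called all 7 in one direction or the other, as it did 76.1% of all tested genes. It called 1 of them higher, against 16.3% of all tested genes, and 6 lower, against 59.8% of all tested genes. The groups did not overlap in any of the 7, which was so for 78.6% of all tested genes, 17.3% with LPS higher and 61.4% with LPS lower. After median-of-ratios scaling, which called 67.1% of all tested genes, 2 were called higher and 5 lower, against 33.5% and 33.6% of all tested genes, the difference being Tnfrsf11a. Dcstamp and Itgb3 passed the filter through their control libraries alone, so that a difference between groups was built into their entry. The median change of the 7 was −1.21, or −0.74 after scaling, beside −0.44 and 0.00 for all tested genes.

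Among the receptors, Tnfrsf11a encodes RANK, the receptor for RANKL (GRCm38 chromosome 1, 105780718 to 105847981, plus strand). It had 43.4, 39.4 and 40.0 TPM in control against 37.1, 34.8 and 36.4 TPM in LPS libraries. All control libraries lay above all LPS libraries, by a small margin. The change was −0.18 (SE 0.06, 95% interval −0.32 to −0.04, limma adjusted p = 0.0276), a mean 1.13 times as high in control. Its direction depended on scaling: scaled by median of ratios it was called higher, by 0.31 (adjusted p = 0.00307), and without Saa3 and Fth1 its change was 0.07 (adjusted p = 0.333). The call on TPM as deposited was also lost without control library 1 (adjusted p = 0.0943), without LPS library 2 (adjusted p = 0.0895) and without LPS library 3 (adjusted p = 0.0509). No direction is therefore given for Tnfrsf11a. The means of each of the other 6 tested genes of the set differed at least 2.4-fold.

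Oscar encodes the osteoclast-associated receptor, which binds collagen and signals through the adaptor FcR gamma (chromosome 7, 3609813 to 3616157, minus strand). It was listed at 0.14, 0.05 and 0 TPM in control against at 0, 0.03 and 0.04 TPM in LPS libraries, so the groups overlapped close to 0. Calcr encodes the calcitonin receptor, a marker of mature osteoclasts (chromosome 6, 3685680 to 3764714, minus strand). Every control library listed it at 0, and the LPS libraries listed 0.14, 0.33 and 0.25 TPM. With no filter on low values, where 23958 genes were tested, 41.6% of genes were called, 8.85% higher and 32.8% lower. Calcr entered that fit through its LPS libraries alone, against control values that may be failed estimates, so its call (change 0.31, SE 0.06, limma adjusted p = 0.00816) is not read as a rise. Oscar was not called (change −0.05, 95% interval −0.19 to 0.08, adjusted p = 0.487). With no filter and median-of-ratios scaling together 35.7% of genes were called, 17.6% higher and 18.1% lower, and Oscar was again not called (adjusted p = 0.637). No fold is given for Calcr, since its control libraries are listed at 0.

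Nfatc1, the transcription factor that drives osteoclast differentiation (chromosome 18, 80606205 to 80713071, minus strand), fell. It had 39.96, 39.2 and 36.1 TPM in control against 15.5, 15.0 and 17.6 TPM in LPS libraries, with no overlap. The means, 38.4 ± 2.07 and 16 ± 1.35 TPM, differ 2.4-fold, and the change was −1.21 (SE 0.08, limma adjusted p = 6.74e-06). After median-of-ratios scaling it was −0.74 (adjusted p = 6.61e-05). An annotated gene on the opposite strand overlaps Nfatc1 but reached at most 0.96 TPM, and the labels do not say whether counting used strand.

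The transcripts of the fusion proteins were rare. Dcstamp encodes DC-STAMP, a membrane protein needed for osteoclasts to fuse (chromosome 15, 39745930 to 39760938, plus strand). It had 1.31, 1.03 and 1.69 TPM in control against 0.13, 0.19 and 0.45 TPM in LPS libraries. The groups were apart, and control library 2, the lowest of its group, was still more than 2-fold above the highest LPS library. Its change was −0.90 (SE 0.17, limma adjusted p = 0.00191), or −0.71 when scaled by median of ratios (adjusted p = 0.00831). Dcstamp passed the filter through its control libraries alone, so that a difference was built in. It also passed in every alternative fit that kept the gene, which is therefore no support for the call. Ocstamp, its relative with a similar role (chromosome 2, 165393760 to 165400405, minus strand), had 0.31, 0.17 and 0.25 TPM in control against 0.03, 0.02 and 0.05 TPM in LPS libraries. It did not reach the filter. With no filter it was called lower (change −0.27, SE 0.05, limma adjusted p = 0.00703), as were 32.8% of the 23958 genes then tested. Its values lie near 0, where 2 decimals are coarse and no counting error is known, so little weight rests on this call. Dendritic cells also express Dcstamp. Of 10 dendritic cell markers 8 stayed below 1 TPM in every library, and the list summed to 13.7 to 18 TPM in control against 10.5 to 13.7 TPM in LPS libraries, most of it Itgax; its part in the fall of Dcstamp was not tested.

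Itgb3 encodes integrin beta 3, which with alpha v forms the receptor that seals osteoclasts to bone (chromosome 11, 104608000 to 104670476, plus strand). It fell further than any other member by ratio of means. The control libraries had 4.17, 3.74 and 4.23 TPM and the LPS libraries 0.08, 0.12 and 0.07 TPM. The means, 4.05 ± 0.267 and 0.09 ± 0.0265 TPM, differ 45-fold, although 2 decimals leave the LPS level coarse. Its change was −2.21 (SE 0.11, limma adjusted p = 1.95e-06), and −1.99 after median-of-ratios scaling (adjusted p = 5.49e-06). Itgb3 passed the filter through its control libraries alone, so that a difference was built into its test. Platelets and megakaryocytes carry the same integrin chain with Itga2b. Of 10 markers of these cells 6 stayed below 1 TPM in every library, Itga2b reached at most 1.04 TPM, and the list summed to 209 to 219 TPM in control against 159 to 167 TPM in LPS libraries, of which Pf4, also made by macrophages, held 199 and 160 TPM. The only other tested gene of that list, Treml1, fell from 12.6 to 0.813 TPM; the part of such cells in the fall of Itgb3 was not tested.

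Acp5 encodes tartrate-resistant acid phosphatase (TRAP), the enzyme stained to count osteoclasts and also made by activated macrophages (chromosome 9, 22126727 to 22135711, minus strand). It was the single gene of the set called higher under every scaling. The control libraries had 14.99, 13.1 and 12.7 TPM and the LPS libraries 314, 308 and 313 TPM. The LPS libraries lay close together, and every one was more than 20-fold above every control library. The means, 13.6 ± 1.23 and 312 ± 3.25 TPM, lay 22.9-fold apart. The log2 change was 4.43 (SE 0.07, limma adjusted p = 1.27e-08), and by rise Acp5 ranked 79 among all tested genes. An opposite-strand gene overlaps Acp5 and reached at most 0.05 TPM. Of 15 neutrophil markers 5 were tested. S100a8, Csf3r and Mmp8 were called higher, as were 16.3% of all tested genes, and the groups of Mmp8 overlapped. Camp and Lcn2 entered the test through their LPS libraries alone, so that a difference was built in. S100a9 was not tested and had 0.593 ± 0.844 TPM in control against 0.543 ± 0.313 TPM in LPS libraries. The list summed to 68.1 to 73.3 TPM in control against 3255 to 3592 TPM in LPS libraries, of which Lcn2 held 3199 TPM. Of the 15, Ly6g, Prtn3 and Retnlg were listed at 0 in all 6 libraries and Elane, Mpo and Ctsg stayed below 1 TPM; the part of other cells in the rise of Acp5 was not tested.

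The secreted and membrane glycoproteins fell from high levels. Spp1 encodes osteopontin, a bone matrix protein and cytokine that binds alpha v integrins and CD44 (chromosome 5, 104435118 to 104441050, plus strand). It had 832, 936 and 768 TPM in control against 195, 207 and 215 TPM in LPS libraries. The groups were far apart, the control libraries varying by 10% and the LPS libraries by 4.81% (coefficient of variation). The means differ 4.11-fold, with a change of −2.03 (SE 0.08, limma adjusted p = 4.62e-07), or −1.54 after median-of-ratios scaling (adjusted p = 1.48e-06). A same-strand gene model inside Spp1 reached at most 2.58 TPM. Osteoblasts also make osteopontin. Of 12 osteoblast and stromal markers 8 stayed below 1 TPM in every library, with Bglap, Bglap2 and Ibsp listed at 0 throughout, and the list summed to 10.1 to 11.1 TPM in control against 6.7 to 8.25 TPM in LPS libraries, against 846 and 205 TPM of Spp1; the part of such cells in the fall of Spp1 was not tested.

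Gpnmb encodes a transmembrane glycoprotein of lysosomes and the cell surface that is induced by MITF-family factors and abundant in osteoclasts and lipid-laden macrophages (chromosome 6, 49036546 to 49070929, plus strand). It had 4671, 5180 and 4669 TPM in control against 885, 892 and 997 TPM in LPS libraries. No library of one group came near the other. The means, 4840 ± 294 and 925 ± 62.3 TPM, differ 5.23-fold, and the change was −2.39 (SE 0.07, limma adjusted p = 1.12e-07), or −1.89 after median-of-ratios scaling (adjusted p = 2.60e-07). In bulk libraries such as these, fewer cells that express a gene and less RNA in each cell cannot be told apart.

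**Figure D2:**
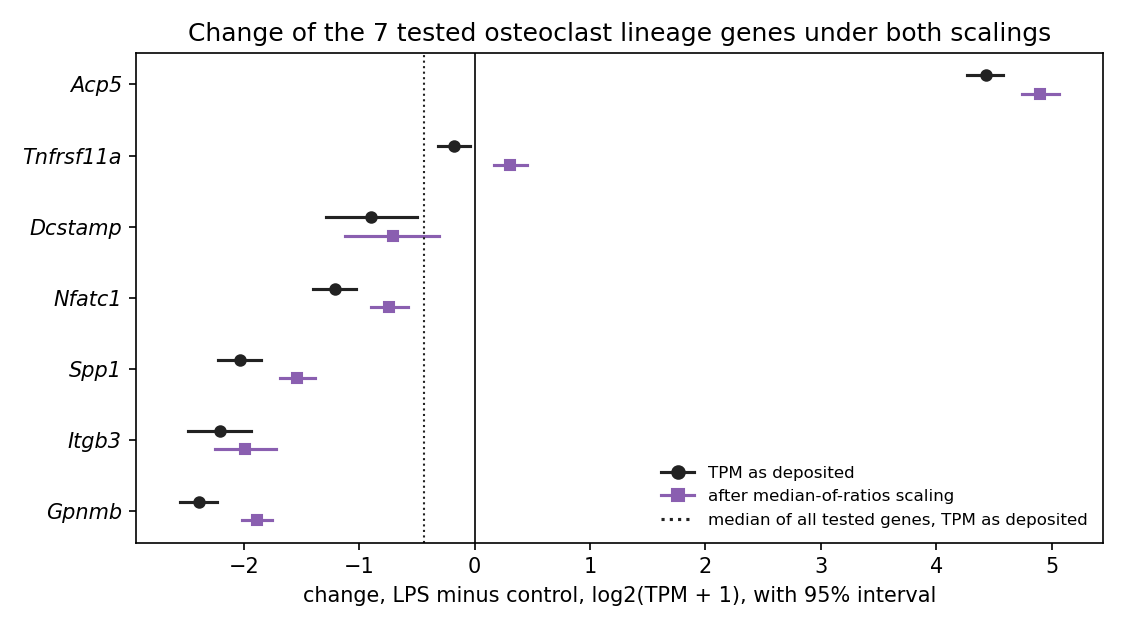
Change (LPS minus control, log2(TPM + 1)) of the 7 tested osteoclast lineage genes with 95% intervals, on TPM as deposited (circles) and after median-of-ratios scaling (squares); the dotted line is the median of all tested genes, −0.44. Scaling moves the points to the right without changing the side of any gene except Tnfrsf11a, whose change goes from −0.18 to 0.31.

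Ratios of 2 transcripts within a library were taken on TPM + 1, so that scaling and the added 1 matter little for abundant genes and more for rare ones. The ratio of Nfatc1 to Irf8, which encodes a repressor of osteoclast formation, was −1.29, −1.33 and −1.53 in control and −2.31, −2.25 and −2.21 in LPS libraries on the log2 scale. It was thus lower in every LPS library, by 0.88 on average, or 1.84-fold (exact permutation p = 0.1, adjusted p = 0.12 over 6 ratios). The ratio of Tnfrsf11a to Csf1r, the M-CSF receptor gene, was −5.32 ± 0.10 in control and −5.08 ± 0.09 in LPS libraries, without overlap (exact permutation p = 0.1). The ratio of Spp1 to Gpnmb was −2.52 ± 0.07 in control and −2.16 ± 0.05 in LPS libraries, without overlap (exact permutation p = 0.1). The enzyme genes gave the widest gap, and the log2 ratio Acp5 to Ctsk was 0.29 ± 0.18 in control and 6.34 ± 0.09 in LPS libraries, a shift of 6.05, or 6.41 with a pseudocount of 0.1 TPM (exact permutation p = 0.1 for both). The ratio of Dcstamp to Ocstamp went from 0.91 ± 0.17 to 0.27 ± 0.17 (exact permutation p = 0.1), but with both genes near or below 1 TPM the added 1 TPM dominates it.

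**Figure D3:**
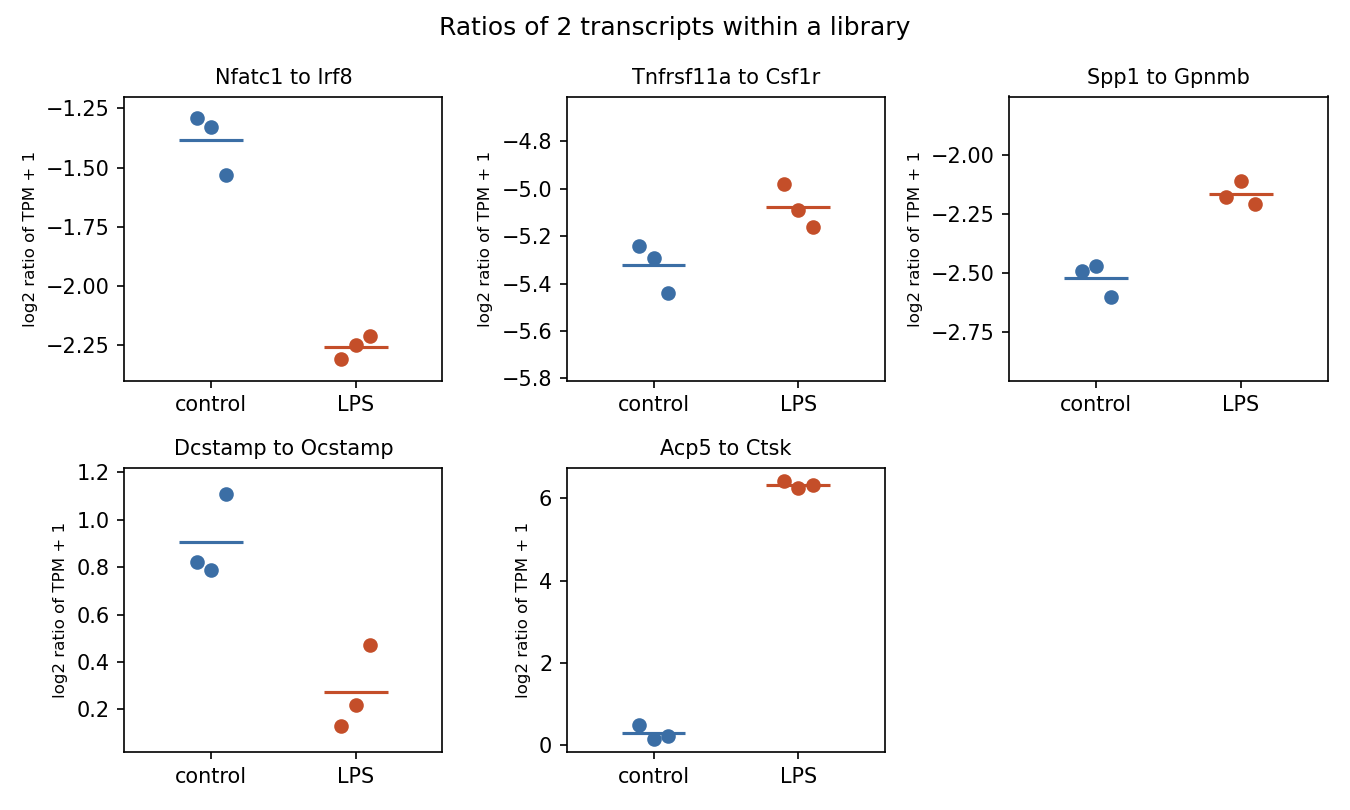
Log2 ratio of TPM + 1 of 5 pairs of transcripts in each library, with group means as bars; each panel has its own axis. The ratio of Acp5 to Ctsk rises from near 0 to above 6 in all LPS libraries, while the ratio of Spp1 to Gpnmb moves by 0.36.

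The wider RANK pathway was measured with lists chosen from textbook knowledge, with earlier results of these data known. The share of each list that was called is read beside that of all tested genes, of which 16.3% were called higher and 59.8% lower, or 33.5% and 33.6% after median-of-ratios scaling. The ligand gene Tnfsf11 (RANKL) was listed at 0 in all 6 libraries, and the decoy receptor gene Tnfrsf11b (osteoprotegerin) had 0.107 ± 0.0252 TPM in control against 0.0433 ± 0.0252 TPM in LPS libraries. Of 18 tested genes of receptor-proximal RANK signalling 4 were called higher (22.2%), 11 lower (61.1%) and 3 neither, which is near the shares of all genes. After median-of-ratios scaling 8 were called higher (44.4%) and 2 lower (11.1%). The median change of the list, −0.43, was that of all genes within 0.01. The noncanonical NF-kB genes Nfkb2 and Relb rose, Nfkb2 from 34 ± 1.34 to 87.4 ± 2.88 TPM and Relb from 27 ± 2.62 to 58.4 ± 3.58 TPM (limma adjusted p = 5.60e-07 and 1.79e-05). Traf6, the adaptor that couples RANK to its kinases, fell from 15.1 ± 1.01 to 9.02 ± 0.43 TPM (adjusted p = 1.51e-04), and Tab1, which binds the kinase TAK1, from 22.5 ± 1.45 to 12.7 ± 1.64 TPM. Both were also the only 2 lower calls after median-of-ratios scaling, and both calls were lost under quantile normalization (adjusted p = 0.112 and 0.0529).

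In the costimulatory arm, of 14 tested genes around the ITAM adaptors 4 were called higher (28.6%) and 8 lower (57.1%), or 7 (50%) and 5 (35.7%) after median-of-ratios scaling. The lower shares are near those of all genes. Fcer1g, the FcR gamma adaptor that OSCAR uses, rose from 2035 ± 17.3 to 4299 ± 53.3 TPM (limma adjusted p = 3.89e-07). Tyrobp (DAP12), the adaptor of TREM2, was at 1955 ± 218 TPM against 1684 ± 43.6 TPM and did not pass (adjusted p = 0.0521), but scaling by median of ratios gave a higher call (adjusted p = 0.0301). Trem2 itself fell from 1917 ± 116 to 229 ± 5.37 TPM (adjusted p = 2.02e-08). Elsewhere in the list, the signalling adaptor gene Lcp2 and the receptor-like gene Sirpb1a rose 2.82-fold and 3.62-fold, while the kinase gene Tec fell from 40.4 ± 1 to 13.1 ± 0.949 TPM. The DAP12 partner gene Siglec15 was listed at 0.23, 0 and 0.31 TPM in the control libraries, while every LPS library had it at 0. Of the 7 tested genes of the M-CSF axis 2 were called higher (28.6%) and 3 lower (42.9%), or 4 and 1 after median-of-ratios scaling. Csf1r had 1675 ± 97.1 and 1251 ± 71.8 TPM, a lower call on TPM as deposited (adjusted p = 5.67e-04) that scaling removed (change 0.08, adjusted p = 0.341). Csf1 rose from 1.47 ± 0.261 to 3.41 ± 0.243 TPM (adjusted p = 5.18e-04) and Akt1 fell from 227 ± 5 to 136 ± 6.74 TPM.

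Transcription factors of osteoclast formation numbered 16 tested genes, of which 6 were called higher (37.5%) and 7 lower (43.8%), or 9 (56.2%) and 4 (25%) after median-of-ratios scaling. Hif1a rose from 29.2 ± 3.21 to 77.5 ± 2.23 TPM and the AP-1 gene Junb from 114 ± 6.14 to 275 ± 8.98 TPM (limma adjusted p = 4.05e-06 and 7.78e-07). Fos, the AP-1 subunit that osteoclasts require, fell from 63.2 ± 12.4 to 34 ± 1.55 TPM (change −0.86, adjusted p = 9.14e-04). Scaled by median of ratios its change was −0.37 (adjusted p = 0.042), and the call was lost when that scaling was used with no filter (adjusted p = 0.0953). Myc fell from 39.9 ± 4.81 to 12.1 ± 0.231 TPM (adjusted p = 3.10e-06). Members of the MITF family are known to act on Gpnmb and Acp5. Tfeb fell from 45.1 ± 2.76 to 17.4 ± 1.45 TPM and Tfec from 33.4 ± 0.928 to 15.6 ± 1.27 TPM, under both scalings. Mitf had 28.3 ± 2.55 and 24.6 ± 1.54 TPM, with a change of −0.20 that did not pass (adjusted p = 0.0633) and that turned to 0.28 after median-of-ratios scaling (adjusted p = 0.0114). Tfe3 had 101 ± 1.66 and 98.3 ± 8.3 TPM (change −0.04, adjusted p = 0.567), and was called higher after scaling (change 0.45, adjusted p = 4.09e-04). Prdm1, whose product silences repressors of osteoclast formation, had 7.89 ± 0.72 and 7.02 ± 0.196 TPM (adjusted p = 0.178), and its change also turned from −0.15 to 0.29 (adjusted p = 0.0171).

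Of 18 tested genes listed as restraining osteoclast formation 9 were called higher (50%) and 8 lower (44.4%). After median-of-ratios scaling 12 (66.7%) were called higher and 4 (22.2%) lower. Zeb1, called higher both times, had 0.693 ± 0.0666 TPM in control against 2.7 ± 0.184 TPM in LPS libraries. It entered the test through its LPS libraries alone, so that a difference was built in. The list is mixed and Cebpa is not a restraint alone, so the shares of the list do not measure restraint. The median change of the list was 0.32, which is 0.76 above that of all tested genes. The higher ones included Socs3, from 12.1 ± 0.399 to 376 ± 25 TPM, and Tnfaip3 (A20), from 13.2 ± 0.872 to 105 ± 4.7 TPM (limma adjusted p = 6.84e-09 and 4.72e-08), both of which limit cytokine and NF-kB signalling in many cells. Other genes of the list went the other way: Cebpa and Id1 fell 5.95-fold and 2.55-fold (adjusted p = 1.32e-07 and 1.28e-05). Irf8 had 102 ± 3.82 and 80.4 ± 4.67 TPM, called lower on TPM as deposited (change −0.34, adjusted p = 0.00128) but higher once scaled by median of ratios (change 0.16, adjusted p = 0.0398). Bcl6 had 27.1 ± 2.22 and 28.9 ± 2.13 TPM (adjusted p = 0.36), or a change of 0.57 after that scaling (adjusted p = 2.87e-04).

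Of 17 tested genes of bone resorption 4 were called higher (23.5%) and 12 lower (70.6%), or 6 (35.3%) and 7 (41.2%) after median-of-ratios scaling, not far from the shares of all genes. Ctsk, the cathepsin that digests bone collagen, fell from 10.9 ± 0.709 to 2.87 ± 0.202 TPM (limma adjusted p = 3.50e-06). Atp6v0d2, the proton pump subunit typical of osteoclasts, fell from 36.5 ± 1.81 to 1.33 ± 0.0954 TPM (adjusted p = 3.21e-08), and Plekhm1, which serves lysosome traffic to the ruffled border, from 90.6 ± 6.25 to 21.2 ± 1.48 TPM. Among matrix metalloproteinase genes, Mmp14 rose from 27.9 ± 3.65 to 901 ± 73.3 TPM (adjusted p = 2.94e-08), while Mmp9 had 0.0967 ± 0.1 and 6.91 ± 1.06 TPM and entered the test through its LPS libraries alone, so that a difference was built in. Snx10, a sorting nexin gene that osteoclasts need for acid secretion, was a further higher call at 52 and 154 TPM. Slc9b2, among the lower calls, had 2.49 ± 0.574 TPM in control against 0.12 ± 0.0173 TPM in LPS libraries. It passed the filter through its control libraries alone, so that a difference was built in there too.

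Of 12 tested genes with a part in macrophage fusion 2 were called higher (16.7%) and 9 lower (75%), or 4 (33.3%) and 8 (66.7%) after median-of-ratios scaling, with a median 0.32 below that of all tested genes. The list is not sorted by whether a gene aids or limits fusion, so its shares do not measure fusion. The tetraspanin genes Cd9 and Cd81 fell from 440 ± 21.3 to 58.9 ± 1.43 TPM and from 96.8 ± 7.33 to 13.7 ± 2.39 TPM (limma adjusted p = 1.91e-08 and 8.77e-07). Cd47 rose from 109 ± 6.56 to 155 ± 7.16 TPM, while Rac2 had 206 ± 73.8 and 652 ± 16 TPM, control library 1 being higher than the others at 291 TPM. Of 17 tested genes of the podosome and sealing zone, the adhesion ring through which beta 3 integrin acts, 5 were called higher (29.4%) and 10 lower (58.8%), or 10 (58.8%) and 5 (29.4%) after median-of-ratios scaling. Src, the kinase without which osteoclasts form no ruffled border, rose from 2.53 ± 0.0458 to 19.5 ± 3.21 TPM (adjusted p = 1.35e-06), and Dock5 from 12.5 ± 1.32 to 19.4 ± 0.815 TPM. Gsn (gelsolin) and Asap1 fell 2.64-fold and 2.59-fold. Itgav, the alpha v partner of Itgb3, had 49.2 ± 2.52 and 29.4 ± 5.81 TPM, a lower call (adjusted p = 0.00144) that median-of-ratios scaling removed (adjusted p = 0.104).

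Partners of osteopontin and GPNMB were called higher in 5 of 15 tested genes (33.3%) and lower in 7 (46.7%), or in 9 (60%) and 4 (26.7%) after median-of-ratios scaling. Thbs1 and Sdc4, which encode thrombospondin 1 and syndecan 4, rose, Thbs1 from 6.03 ± 0.286 to 18.2 ± 1.83 TPM and Sdc4 from 105 ± 1.76 to 222 ± 6.76 TPM. Itgb5, another beta chain that pairs with alpha v, fell from 244 ± 5.48 to 73.7 ± 4.41 TPM (limma adjusted p = 1.97e-07). The level of Itgb5 was thus far above that of Itgb3 in both groups.

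**Figure D4:**
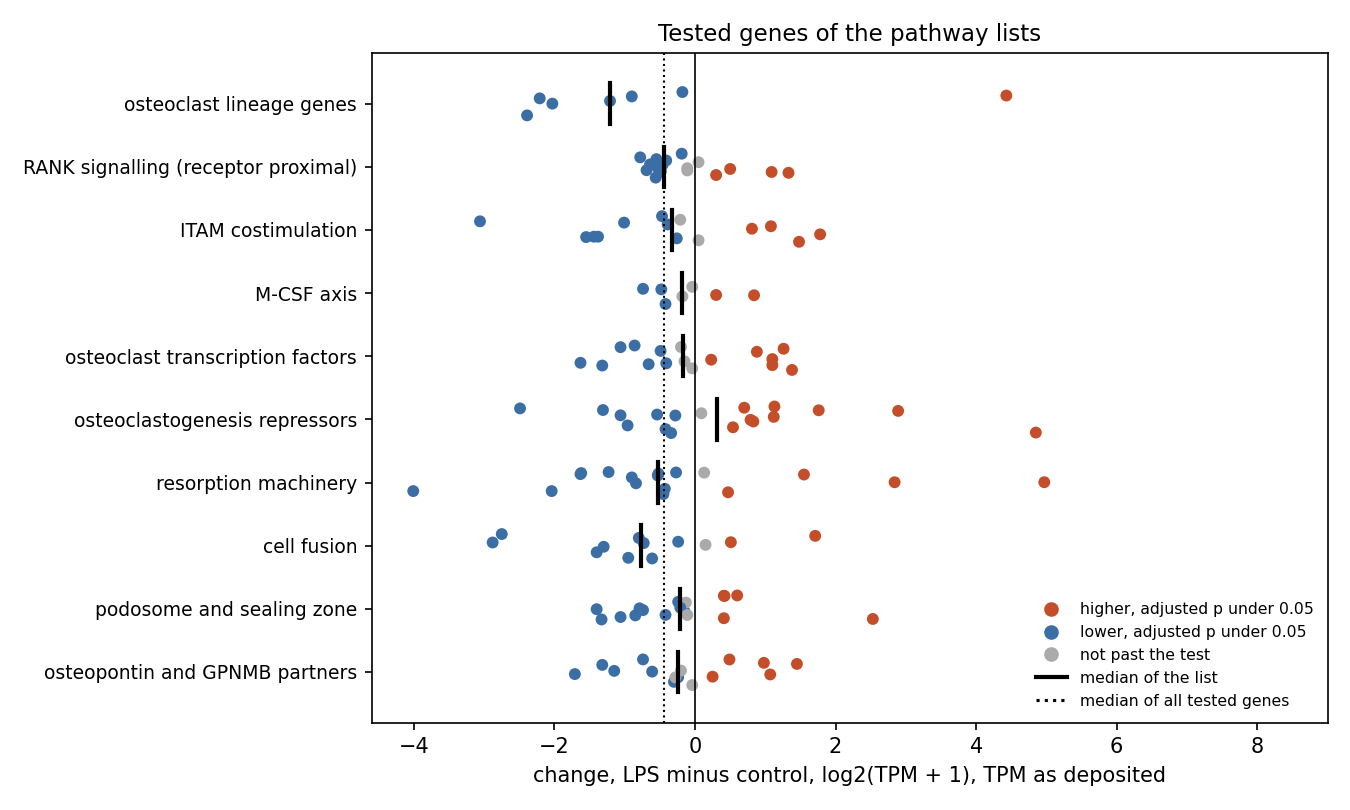
Change (LPS minus control, log2(TPM + 1), TPM as deposited) of each tested gene, by list; colours give the limma call, black bars the list medians, and the dotted line the median of all tested genes, −0.44. Each of the 9 pathway lists holds genes called in both directions. The highest list median, 0.32, is that of the genes listed as restraining osteoclast formation. That list is mixed and includes Zeb1, which entered the test through its LPS libraries alone.

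The macrophage label was checked against 10 defining markers, all of which were tested. Of the 10, 5 were called higher and 5 lower on TPM as deposited, beside 16.3% and 59.8% of all tested genes. After median-of-ratios scaling 5 were called higher and 2 lower, beside 33.5% and 33.6% of all tested genes. On TPM as deposited Fcgr1, Itgam and Adgre1 were among the higher calls, and Cd68, from 2376 ± 18.9 to 1296 ± 54.8 TPM, C1qa, Csf1r and Mertk among the lower ones. The sum of the 10 was 27596 to 29238 TPM in control against 35765 to 38304 TPM in LPS libraries, most of it Lyz2 at 21394 and 29245 TPM. Of T and NK cell markers 9 of 10, of B cell markers 7 of 8 and of mast cell and basophil markers 8 of 8 stayed below 1 TPM in every library, and no library exceeded 3.59 TPM for the sum of any of these 3 lists.

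The genes with the most similar values were found by the root mean square difference of log2(TPM + 1) over the 6 libraries. Acp5 lay nearest to Socs3 and Ccl7 (differences 0.23 and 0.38). Nfatc1 lay nearest to Etfdh and Ubqln2 (0.09 and 0.10), Tnfrsf11a to Eloa and Pak2 (0.06 and 0.07), and Itgb3 to Bcl7a and Rragd (0.10 each). Spp1 lay nearest to S100a6 and Ckb (0.25 and 0.28) and Dcstamp to Tmem25 and Gm14340 (0.08 and 0.14). Gpnmb had no close neighbour at its level, the nearest being mt-Cytb and Vim (0.46 and 0.51). With 2 groups, such likeness mostly reflects a similar level in each group.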

How the data were processed

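RNA sequencing libraries of 3 control and 3 LPS-treated macrophage samples were compared from 1 table of TPM deposited by the authors, which also holds the authors' group means and a gene length per row. Bowtie 0.12.2 and the builds mm8 and mm9 are named, per the submitters' processing notes, with no role. The tool and annotation behind the TPM values, and any use of strand, are not stated in the labels. Each library sums to 1000000 TPM within 1 TPM, so that genes taking a large share lower all others. Read depth cannot be recovered from TPM, and precision rests on the 3 libraries of each group. Coordinates came from GENCODE M21 (GRCm38) by gene identifier, with 52133 of 55736 identifiers matched, and were not converted between builds.

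The 12440 genes reaching 1 TPM in 3 or more libraries were tested with limma 3.58.1 (lmFit, eBayes with trend, R 4.3.3) on log2(TPM + 1) for the difference LPS minus control, as a two-sided test, and p-values were adjusted by Benjamini-Hochberg across these genes. An adjusted p is limma's unless stated. Ratios and sums were compared by exact two-sided permutation (scipy 1.17.1); 1 of the 6 ratios and 1 gene fixed by name are not reported here. The test was checked on simulated data. Other pseudocounts (0.1 and 0.5), filters, scalings, left-out libraries and a replicate block were tried. The members and lists were chosen with earlier results of these data known. Genes named beside the 10 members are, in each list, the 2 largest rises and falls among called genes, plus genes fixed by name. Snx10, Tfe3, Zeb1, Slc9b2, Treml1, Itga2b, Pf4 and the other cell type markers were named after their values were seen.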

Additional observations from a re-analysis of the deposited data

How the results depend on the processing

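The calls of Acp5, Gpnmb, Spp1, Nfatc1, Itgb3 and Dcstamp held in every alternative fit that kept the gene, 18 for Itgb3 and Dcstamp and 19 for the others. For Itgb3 and Dcstamp, which passed the filter through control libraries alone, this is no support for the call. Their changes ranged from 4.34 to 4.90, −2.48 to −1.89, −2.13 to −1.54, −1.31 to −0.74, −4.45 to −1.87 and −2.09 to −0.50. The direction of Tnfrsf11a changed with scaling, and its call was also lost without single libraries. Ocstamp, Oscar and Calcr were tested only with no filter. The genes called higher numbered 2028 and the genes called lower 7441 on TPM as deposited, against 4167 and 4181 after median-of-ratios scaling, 3543 and 4875 after upper-quartile scaling, and 4029 and 4257 under quantile normalization. With no filter and median-of-ratios scaling together, chosen after seeing the data, the counts were 4212 and 4346. Members called higher numbered 1 on TPM as deposited, 2 with each of these 3 scalings, 2 with no filter (Acp5 and Calcr) and 3 with no filter and scaling together. Leaving out each library in turn gave 1899 to 2012 genes called higher, 7051 to 7260 genes called lower and 5 to 6 members called lower.

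Reversed directions concerned small changes. After median-of-ratios scaling, with the filter and without it, the change became 0.31 for Tnfrsf11a, 0.28 for Mitf, 0.29 for Prdm1, 0.16 for Irf8, 0.29 for Tyrobp, 0.08 for Csf1r and 0.01 for Grb2. Upper-quartile scaling gave 0.19, 0.17, 0.19, 0.04 and 0.17 for the first 5 of these, and quantile normalization 0.22 for Tnfrsf11a, 0.24 for Mitf and 0.44 for Prdm1. With Saa3 and Fth1 left out, Tnfrsf11a had 0.07, Mitf 0.04, Prdm1 0.08 and Tyrobp 0.04, and without the mitochondrial and ribosomal protein genes Bcl6 had −0.00. Under median-of-ratios scaling the differences turned to 1.41 TPM for summed markers dendritic cell, 13 TPM for summed markers megakaryocyte and platelet and 0.135 TPM for summed markers osteoblast and stroma.

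Same-numbered control and LPS libraries did not deviate together, with correlations of 0.0744, −0.151 and 0.0765 over tested genes. Differently numbered libraries had correlations from −0.192 to 0.119. With 3 libraries per group these values cannot decide whether the numbers pair the libraries. With the replicate block the genes called higher numbered 1993 and the genes called lower 7304, with 1 and 6 members, and no member's call changed. Low genes are limited by the 2 decimals of the table.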

Other observations

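Genes next to the members on the chromosome were read after the members' values had been seen, as values with no explanation. The nearest tested gene to Ocstamp, Slc13a3, 4.62 kb away, which encodes a dicarboxylate transporter, rose from 2.1 ± 0.0907 to 24.1 ± 3.72 TPM (limma adjusted p = 5.11e-07) while Ocstamp stayed below 0.4 TPM. The nearest tested gene to Oscar, Ndufa3, 1.22 kb away, had 96.8 ± 20.9 and 137 ± 35.6 TPM and was not called (adjusted p = 0.0685). After median-of-ratios scaling Ndufa3 was called higher (adjusted p = 0.00691). On the other side, 107 kb from Oscar, Tarm1 encodes an activating myeloid receptor. Tarm1 rose from 1.03 ± 0.252 to 83.1 ± 6.89 TPM (adjusted p = 3.72e-08) while Oscar stayed near 0. Beside Gpnmb, the transcript Gm19253, 0.701 kb away, had 22.6 ± 7.51 and 9.34 ± 3.14 TPM (adjusted p = 0.00486). The tested neighbours of Acp5, Elof1 and Pigyl, had changes of −0.37 and −0.66, and 0.12 and −0.18 after median-of-ratios scaling.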
